A study of Mus musculus with 12 samples.

Results

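Glucose enters upper glycolysis through a short chain of proteins, and 10 genes of that chain were chosen by name: the glucose transporters Slc2a1 and Slc2a3, the hexokinases Hk1, Hk2 and Hk3, the phosphofructokinases Pfkl, Pfkm and Pfkp, and the bifunctional regulators Pfkfb3 and Pfkfb4. All 10 were measured, by 19 probe sets that carried 1 gene symbol, out of 17097 genes and 28898 such probe sets in the table, and no filter on dim signal was applied. The cells were dendritic cells (DCs) from the spleens of 10-week-old male C57BL/6 mice, hybridised to 12 Affymetrix arrays. The 4 groups, each of 3 arrays, were miR-142 knockout (KO) DCs given lipopolysaccharide (LPS), wild-type (WT) littermate DCs given LPS, unstimulated KO DCs and unstimulated WT DCs. DCs were taken by positive selection from single spleens, and neither the dose and duration of LPS nor how the knockout was made is stated in the sources used. The sample descriptions name T cells, which goes against every other label of the samples. Mir142 itself had no probe set with its symbol alone, so the genotype labels were not checked on it. In these data Slc2a1 was higher and Pfkp lower in KO than in WT DCs when both stimulations were averaged, each on 1 probe set. Both calls were lost when same-numbered arrays of a genotype were averaged to 1 value. Hk2 signal lay above its unstimulated range in all LPS arrays without passing the test in either genotype. No other of the 10 genes passed in the fit of the 4 group means to all arrays.

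The transporters carry glucose across the plasma membrane, hexokinases phosphorylate it so that it stays in the cell, and phosphofructokinase commits it to glycolysis. The bifunctional enzymes encoded by the Pfkfb genes make and remove the sugar bisphosphate that activates phosphofructokinase, and so set the pace of that step. DCs stimulated through Toll-like receptors are known to raise glucose uptake and glycolytic flux early after activation, which involves hexokinase II at the mitochondrion. miR-142 is a microRNA abundant in blood cells, and its hairpin gives a 5p and a 3p strand that pair with targets mainly through the seed, bases 2 to 8.

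The mature strands are shown because they are what the KO mice were bred to lack, with the seed in capitals. They are RefSeq sequences on GRCm38.p6, with the 5p strand at chr11:87756867-87756887 and the 3p strand at chr11:87756903-87756925, both on the plus strand. The seeds differ, and sites for them in the 10 genes were not analysed here.
mmu-miR-142a-5p: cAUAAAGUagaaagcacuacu
mmu-miR-142a-3p: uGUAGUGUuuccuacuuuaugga

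The upstream sequence of Slc2a1, Hk2 and Pfkp is shown because the results turn on these 3 genes, as the 250 bases before the transcription start site in RefSeq on GRCm38.p6. Slc2a1 lies at chr4:119108495-119108744 on the plus strand, Hk2 at chr6:82774455-82774704 on the minus strand and Pfkp at chr13:6648772-6649021 on the minus strand, each printed 5′ to 3′ in the direction of the gene. Capitals mark ACGTG and GCGTG, the core letters of the element bound by hypoxia-inducible factors, searched on both strands and therefore also as CACGT and CACGC.
Slc2a1: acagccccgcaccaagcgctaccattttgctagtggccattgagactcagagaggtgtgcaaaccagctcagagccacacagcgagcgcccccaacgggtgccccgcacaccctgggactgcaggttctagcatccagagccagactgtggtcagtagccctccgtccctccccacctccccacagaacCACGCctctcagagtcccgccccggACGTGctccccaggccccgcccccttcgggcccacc
Hk2: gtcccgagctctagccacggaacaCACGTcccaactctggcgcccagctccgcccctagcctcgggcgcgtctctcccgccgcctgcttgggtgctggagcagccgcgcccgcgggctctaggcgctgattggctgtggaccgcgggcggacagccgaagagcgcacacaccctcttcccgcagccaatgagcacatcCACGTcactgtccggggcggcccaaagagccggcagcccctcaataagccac
Pfkp: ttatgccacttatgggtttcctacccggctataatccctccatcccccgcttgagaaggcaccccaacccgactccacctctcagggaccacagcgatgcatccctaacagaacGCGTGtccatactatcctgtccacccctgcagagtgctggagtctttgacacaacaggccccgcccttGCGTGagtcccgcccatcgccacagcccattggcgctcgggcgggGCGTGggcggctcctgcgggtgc
Slc2a1 held 1 CACGC at 61 bases and 1 ACGTG at 36 bases before the start, Hk2 held CACGT at 226 and 52 bases, and Pfkp held GCGTG at 136, 68 and 23 bases, with no overlap between matches in these 3 windows. Of the 14 windows of the 9 genes found in the promoter table (all but Slc2a3), 12 held at least 1 match (85.7%), where 38.6% of all 32851 windows of the same length did. In the windows of Pfkm and Pfkfb3 a CACGTG was counted on both strands. Windows of 1 gene can overlap and are then not independent. The Pfkm windows at chr15:98108221-98108470 and chr15:98108306-98108555 share 1 CACGC, counted in both and the only match in the second. These are matches of letters, and binding at them was not measured here.

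MHC class II genes that mark DCs were bright on all arrays, and neutrophil and natural killer (NK) cell markers were brighter in KO than in WT. Erythroid and platelet markers also ran higher in KO, without a call on all arrays. T cell, B cell, and monocyte and macrophage markers were mixed. Of the 14 DC markers 10 were measured, with Cd74, H2-Aa and H2-Ab1, genes of antigen presentation on MHC class II, the brightest, and the list averaged 6.37 to 6.96 in KO LPS, 7.03 to 7.16 in WT LPS, 6.89 to 7.02 in KO unstimulated and 6.96 to 7.07 in WT unstimulated arrays on the log2 scale. Of these 10, 1, Xcr1, a receptor of cross-presenting DCs, was called lower in KO over both stimulations (−0.54 ± 0.11, limma, adjusted p = 0.0247). In that comparison 2.12% of all probe sets were called, higher or lower, the share to set beside each marker count here. The 12 measured neutrophil markers of 14, led by S100a9, S100a8 and Camp, averaged 5.51 to 7.46 in KO LPS, 3.33 to 4.40 in WT LPS, 5.62 to 8.08 in KO unstimulated and 3.33 to 4.42 in WT unstimulated arrays, and 9 were called higher in KO over both stimulations. The 8 NK cell markers, all measured and led by Gzma, Klra9 and Klra8, averaged 5.40 to 5.59 in KO LPS, 3.43 to 4.07 in WT LPS, 5.34 to 5.61 in KO unstimulated and 3.22 to 3.95 in WT unstimulated arrays, and 7 were called higher. The 6 measured T cell markers of 8 averaged 3.54 to 3.83 in KO LPS, 3.73 to 4.08 in WT LPS, 3.76 to 3.80 in KO unstimulated and 3.78 to 4.15 in WT unstimulated arrays. Only 1 of them, Cd4, was called lower in KO (−0.64 ± 0.12, limma, adjusted p = 0.0191), and the genes of the CD3 chains were not called. The 7 measured B and plasma cell markers of 8 averaged 4.60 to 5.77 in KO LPS, 5.76 to 6.10 in WT LPS, 5.06 to 5.72 in KO unstimulated and 5.91 to 6.06 in WT unstimulated arrays, with Jchain, the joining chain of secreted antibodies, called lower in KO (−3.54 ± 0.30, limma, adjusted p = 0.000219) and the B cell marker Ms4a1 called higher (0.87 ± 0.15, adjusted p = 0.0112). Of the 10 measured monocyte and macrophage markers of 11, 1 was called higher, and of the 5 measured erythroid markers of 8 none was called. Over both stimulations the erythroid markers were higher in KO by 0.17 to 1.35 and the platelet markers by 0.14 to 2.04. In bulk RNA, fewer cells of a type and less RNA per cell cannot be told apart. KO LPS array 2 stood apart: its Gapdh control probe set for the 3′ end exceeded that for the mid-transcript by 3.04 on the log2 scale, against 1.53 to 1.86 on the other 11 arrays, and it correlated at 0.935 to 0.958 with the other arrays, which correlated at 0.966 to 0.991 with each other. Values without this array are given beside many of the differences that it moved, not all.

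Slc2a1, which encodes the ubiquitous transporter GLUT1, was higher in KO than in WT, with the largest averaged fold change toward KO of the 19 probe sets. Probe set 1426599_PM_a_at read 6.72, 7.15 and 6.86 in KO LPS arrays 1 to 3, against 6.40, 6.45 and 5.97 in WT LPS arrays. It read 6.81, 7.20 and 6.72 in KO unstimulated arrays, against 6.25, 6.29 and 5.94 in WT unstimulated arrays. Every KO array lay above every WT array, array 2 was the highest of its group in all 4 groups, and array 3 was the lowest of both WT groups. Averaged over stimulations Slc2a1 rose by 0.69 ± 0.12 log2 units in KO (moderated SE, limma, 95% interval 0.42 to 0.96, 1.61-fold, adjusted p = 0.0156). The difference was 0.63 ± 0.17 with LPS (adjusted p = 0.161) and 0.75 ± 0.17 without (adjusted p = 0.155), and neither passed alone. Leaving out KO LPS array 2, these were 0.51 ± 0.18 (adjusted p = 0.338) and 0.75 ± 0.16 (adjusted p = 0.0504) by limma. Both stimulations passed with array number as a fixed replicate block over all arrays, with an adjusted p of 0.0359 with LPS and 0.0222 without (limma). That block also matches KO with WT arrays of the same number, and whether these belong together is not stated. Averaged over both stimulations the call held when each of the 12 arrays was left out in turn (adjusted p = 0.0128 to 0.0450). It held with array number within genotype as a random replicate block (adjusted p = 0.0207). It was lost when same-numbered arrays were averaged to 3 KO and 3 WT values (0.69 ± 0.15, limma, adjusted p = 0.152). The NK and neutrophil marker means separated the genotypes in the same way, each with its lowest value in array 3 of both WT groups, and the neutrophil mean was highest in array 2 of KO unstimulated and of WT LPS. The part of either in the Slc2a1 difference was not tested.

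The other Slc2a1 probe set, 1426600_PM_at, did not pass. It read 6.20, 5.16 and 6.05 in KO LPS arrays, against 5.92, 6.06 and 5.69 in WT LPS arrays. It read 6.44, 6.65 and 6.20 in KO unstimulated arrays, against 5.92, 6.02 and 5.62 in WT unstimulated arrays. Without stimulation all 3 KO arrays lay above the WT arrays, and with LPS the groups overlapped, with KO LPS array 2 the lowest of all 12. The averaged difference was 0.25 ± 0.16 (limma, adjusted p = 0.501), and without KO LPS array 2 it was 0.41 ± 0.11 (adjusted p = 0.0608).

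Slc2a3, which encodes the high-affinity transporter GLUT3, had 4 probe sets and none passed. Probe set 1437052_PM_s_at read 5.86, 5.34 and 4.45 in KO LPS arrays, against 4.76, 4.91 and 4.86 in WT LPS arrays. It read 5.96, 5.96 and 4.99 in KO unstimulated arrays, against 4.94, 4.98 and 4.71 in WT unstimulated arrays. KO arrays 1 and 2 were high, and KO array 3 lay just above the WT arrays without stimulation and below them with LPS. Over both stimulations the difference was 0.57 ± 0.22 (limma, adjusted p = 0.230). Of the 12 fits that left out 1 array (adjusted p = 0.0337 to 0.424), only that without KO LPS array 3 passed, at 0.76 ± 0.17. Without KO LPS array 2 the difference was 0.54 ± 0.23 (adjusted p = 0.273). Probe set 1455898_PM_x_at was also low in KO array 3, at 5.53, 5.82 and 4.45 in KO LPS arrays and 5.93, 5.94 and 4.65 in KO unstimulated arrays, against 4.81 to 4.87 in WT LPS and 4.97 to 5.41 in WT unstimulated arrays. Its averaged difference was 0.38 ± 0.25 (limma, adjusted p = 0.502), or 0.24 ± 0.24 with KO LPS array 2 left out. The neutrophil marker mean had the same pattern within KO, at 7.46, 7.46 and 5.51 with LPS and 7.74, 8.08 and 5.62 without. The erythroid marker mean was also lowest in KO array 3, at 6.12, 6.42 and 5.80 with LPS and 6.18, 6.67 and 5.69 without. The part of either in the Slc2a3 values was not tested. The remaining probe sets were dim, 1421924_PM_at at 2.82 to 3.48 and 1427770_PM_a_at at 1.25 to 1.72 over the 12 arrays.

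**Figure D1:**
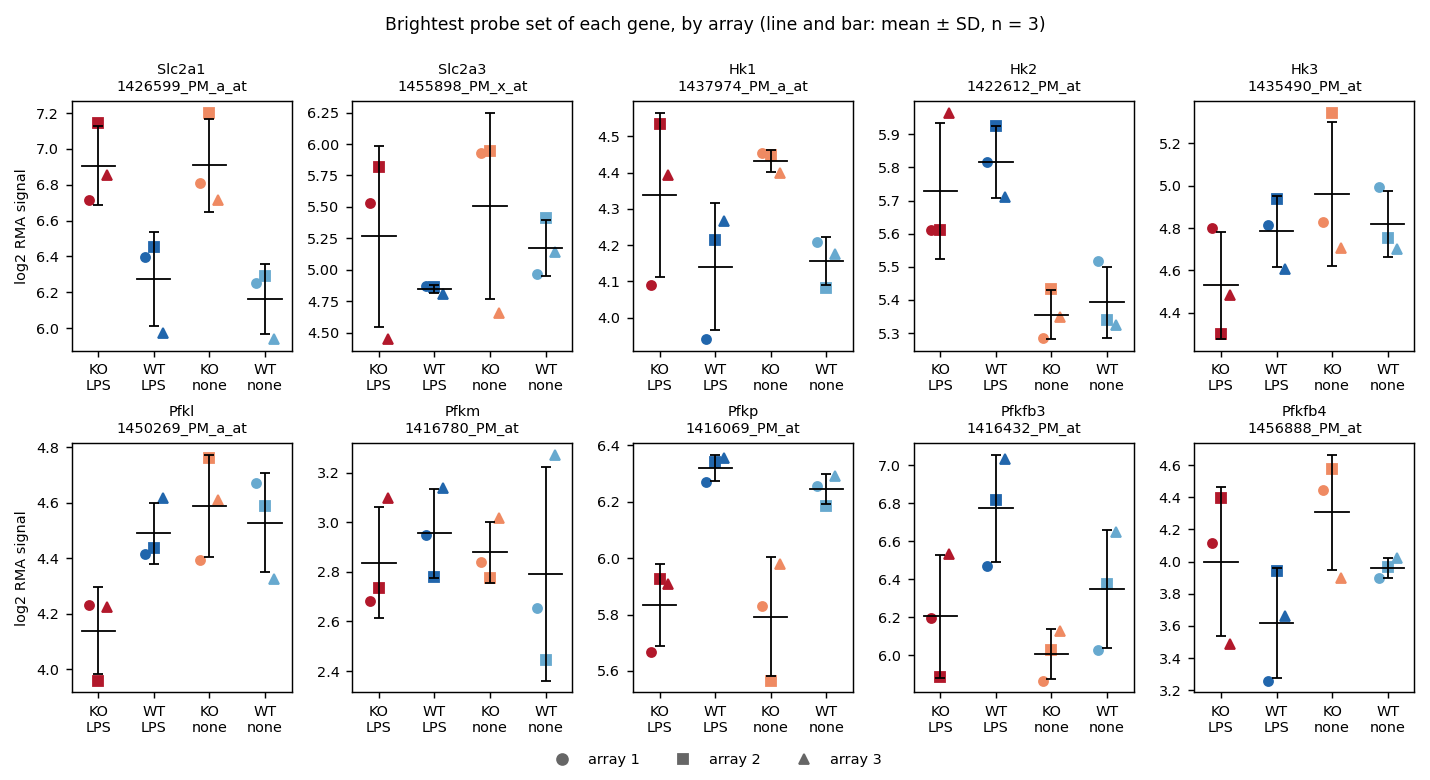
Log2 RMA signal (vertical axes) of the brightest probe set of each of the 10 genes on the 12 arrays, by group (KO LPS, WT LPS, KO unstimulated, WT unstimulated), with circles, squares and triangles for arrays 1, 2 and 3, a line at the mean and bars of ± SD (n = 3 per group). Slc2a1 separates KO from WT upward and Pfkp downward, Hk2 separates LPS from unstimulated arrays, and Slc2a3 and Pfkfb4 are high in KO arrays 1 and 2 and low in KO array 3.

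No hexokinase differed between genotypes past the threshold. Hk1, the broadly expressed mitochondrial form, read 4.09, 4.53 and 4.39 on 1437974_PM_a_at in KO LPS arrays, against 3.94, 4.21 and 4.27 in WT LPS arrays, and 4.45, 4.45 and 4.40 in KO unstimulated arrays, against 4.21, 4.08 and 4.18 in WT unstimulated arrays. KO lay above WT without overlap only among unstimulated arrays. The averaged difference was 0.24 ± 0.09 (limma, adjusted p = 0.211), or 0.19 ± 0.09 with KO LPS array 2 left out (adjusted p = 0.307). Its other probe set, 1420901_PM_a_at, was dim at 1.47 to 2.22 and had an averaged difference of −0.07 ± 0.12. Hk2, the form that many cells induce, differed between KO and WT by −0.06 ± 0.08 over both stimulations (95% interval −0.24 to 0.12, limma, adjusted p = 0.771). Hk3, a form found in myeloid cells, read 4.80, 4.30 and 4.48 in KO LPS arrays, against 4.81, 4.94 and 4.61 in WT LPS arrays. It read 4.83, 5.34 and 4.71 in KO unstimulated arrays, against 4.99, 4.75 and 4.70 in WT unstimulated arrays. The groups overlapped in both stimulations, with KO array 2 the highest of its group without LPS and the lowest with it, and the averaged difference was −0.06 ± 0.13 (95% interval −0.33 to 0.22). Averaged differences with KO LPS array 2 left out were 0.02 for the dim Hk1 probe set, −0.03 for Hk2 and 0.00046 for Hk3.

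Of the phosphofructokinases, Pfkp, the platelet-type subunit, was lower in KO. Probe set 1416069_PM_at read 5.67, 5.93 and 5.91 in KO LPS arrays, against 6.27, 6.34 and 6.35 in WT LPS arrays. It read 5.83, 5.56 and 5.98 in KO unstimulated arrays, against 6.26, 6.19 and 6.29 in WT unstimulated arrays. Every KO array lay below every WT array, and the WT arrays were the tighter, with an SD of 0.05 in both WT groups, against 0.14 in KO LPS and 0.21 in KO unstimulated arrays. Averaged over stimulations Pfkp fell by 0.47 ± 0.08 log2 units in KO (limma, 1.39-fold lower, adjusted p = 0.0156), with an interval of −0.65 to −0.29. The difference was −0.49 ± 0.12 with LPS (adjusted p = 0.118) and −0.45 ± 0.12 without (adjusted p = 0.221). The averaged call held when each of the 12 arrays was left out in turn (adjusted p = 0.00851 to 0.0482) and with the random replicate block (adjusted p = 0.0301), and it was lost with pair means (−0.47 ± 0.09, adjusted p = 0.102).

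The dimmer Pfkp probe set, 1437759_PM_at, read 4.19, 3.58 and 4.32 in KO LPS arrays, against 4.52, 4.55 and 4.47 in WT LPS arrays. It read 3.74, 3.33 and 3.97 in KO unstimulated arrays, against 4.19, 4.44 and 4.33 in WT unstimulated arrays. KO lay below WT without overlap in both stimulations, with array 2 the lowest of both KO groups. The averaged difference was −0.56 ± 0.14 (limma, adjusted p = 0.0533), and without KO LPS array 2 it was −0.45 ± 0.11 (adjusted p = 0.0379). It also passed without KO unstimulated array 3 (adjusted p = 0.0372) or without KO LPS array 3 (adjusted p = 0.0251), and no other array left out gave a call. The platelet marker mean was 5.76, 4.36 and 4.16 in KO LPS arrays, against 3.69, 4.11 and 3.68 in WT LPS arrays. It was 5.49, 4.40 and 4.47 in KO unstimulated arrays, against 3.56, 4.07 and 3.84 in WT unstimulated arrays. It was thus higher in KO in both stimulations, and with all arrays none of its 6 members was called. With KO LPS array 2 left out, Pf4, Ppbp and Itga2b passed over both stimulations (limma, adjusted p = 0.0287, 0.0365 and 0.0382), and the other platelet markers did not. The NK and neutrophil marker means were also higher in KO without overlap. Lower in KO without overlap were the B and plasma cell mean unstimulated (5.06 to 5.72, against 5.91 to 6.06 in WT) and the DC mean with LPS (6.37 to 6.96, against 7.03 to 7.16). Each of these overlapped in the other stimulation. The part of any of these lists in the Pfkp difference was not tested.

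Pfkl, the liver-type subunit, did not differ between genotypes past the threshold on any of its 3 probe sets, with averaged differences of −0.15 to −0.06 (−0.10 to 0.01 with KO LPS array 2 left out) and the other 2 probe sets at 3.18 to 3.92 over the 12 arrays. On 1450269_PM_a_at it read 4.23, 3.96 and 4.22 in KO LPS arrays, against 4.42, 4.44 and 4.62 in WT LPS arrays, and 4.39, 4.76 and 4.61 in KO unstimulated arrays, against 4.67, 4.59 and 4.33 in WT unstimulated arrays. With LPS, KO lay below WT without overlap (−0.35 ± 0.13, limma, adjusted p = 0.273). Leaving out KO LPS array 2 gave a difference of −0.26 ± 0.14. The unstimulated groups overlapped. Pfkm, the muscle-type subunit, read 2.68 to 3.10 in KO LPS, 2.78 to 3.14 in WT LPS, 2.78 to 3.02 in KO unstimulated and 2.44 to 3.27 in WT unstimulated arrays, and all groups overlapped.

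Pfkfb3, the regulator with the highest kinase activity of its family, ran lower in KO on both probe sets without passing. Probe set 1416432_PM_at read 6.20, 5.88 and 6.53 in KO LPS arrays, against 6.47, 6.82 and 7.03 in WT LPS arrays. It read 5.86, 6.03 and 6.13 in KO unstimulated arrays, against 6.03, 6.37 and 6.65 in WT unstimulated arrays. The groups overlapped in both stimulations, since the lowest WT array, array 1, lay under the highest KO array. The averaged difference was −0.46 ± 0.14 (limma, adjusted p = 0.122). Of the 12 fits that left out 1 array (adjusted p = 0.0476 to 0.264), only that without KO LPS array 3 passed, at −0.54 ± 0.13. Without KO LPS array 2 the difference was −0.38 ± 0.13 (adjusted p = 0.157). Probe set 1456676_PM_a_at read 5.73, 4.96 and 6.11 in KO LPS arrays, against 6.09, 6.37 and 6.37 in WT LPS arrays, and 5.74, 5.50 and 5.80 in KO unstimulated arrays, against 5.64, 6.08 and 6.14 in WT unstimulated arrays. Here too the groups overlapped in both stimulations, with 1 KO array above the lowest WT array with LPS and 2 without. The averaged difference was −0.48 ± 0.17 (limma, adjusted p = 0.185). Of the 12 fits that left out 1 array (adjusted p = 0.0447 to 0.352), again only that without KO LPS array 3 passed, at −0.60 ± 0.15. Leaving out KO LPS array 2 gave −0.32 ± 0.12 (adjusted p = 0.185).

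Pfkfb4, another member of that enzyme family, read 4.12, 4.40 and 3.49 in KO LPS arrays, against 3.26, 3.94 and 3.66 in WT LPS arrays. It read 4.44, 4.58 and 3.90 in KO unstimulated arrays, against 3.90, 3.97 and 4.02 in WT unstimulated arrays. KO arrays 1 and 2 were high and KO array 3 was the lowest of its group in both stimulations, as for Slc2a3 and the neutrophil and erythroid marker means within KO. The likeness did not extend to WT. There both marker means were lowest in array 3, at 3.33 (neutrophil) and 4.70 (erythroid) with LPS and 3.33 and 4.69 without. Pfkfb4 was not lowest in WT array 3 in either stimulation. The averaged difference was 0.36 ± 0.17 (limma, adjusted p = 0.319), or 0.26 ± 0.16 with KO LPS array 2 left out (adjusted p = 0.464). The part of the neutrophil or erythroid signal in it was not tested.

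**Figure D2:**
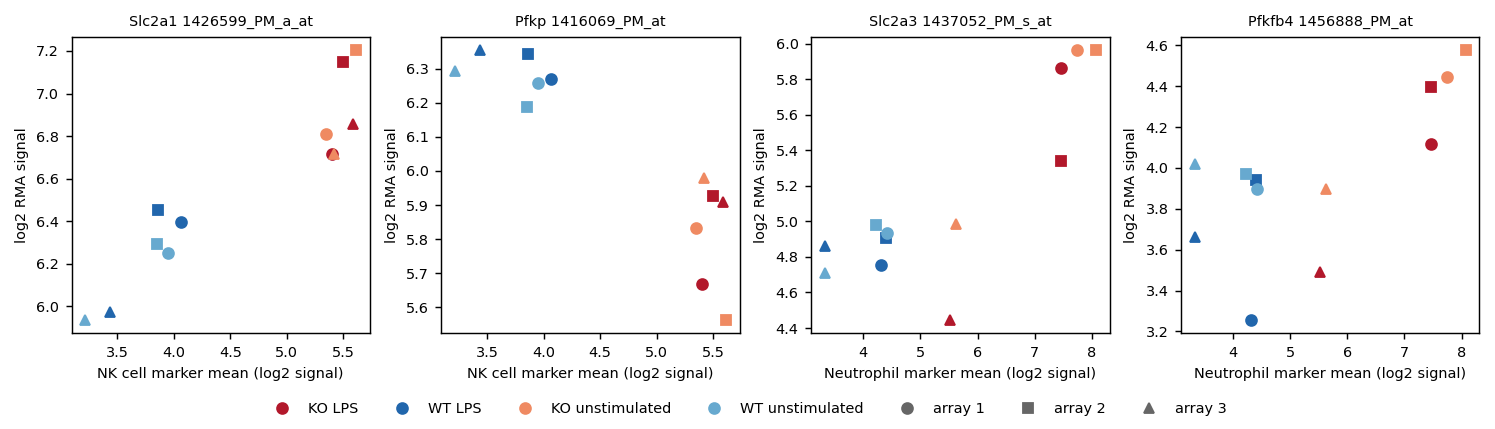
Log2 RMA signal of 4 member probe sets (vertical axes) against the mean log2 signal of NK cell markers (Slc2a1 and Pfkp panels) or of neutrophil markers (Slc2a3 and Pfkfb4 panels), with 1 point per array, colours for the 4 groups and circles, squares and triangles for arrays 1, 2 and 3. NK marker means run from 5.34 to 5.61 on KO unstimulated arrays and from 3.22 to 3.95 on WT unstimulated arrays, and KO array 3 has the lowest neutrophil mean of KO in both stimulations.

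Counted over the 19 probe sets, 2 passed in KO against WT over both stimulations, 1 higher and 1 lower, where 2.12% of all probe sets passed. For 3 probe sets, 1426599_PM_a_at of Slc2a1 and both of Pfkp, the KO arrays lay on the same side of the WT arrays without overlap within both stimulations (4.52% of all probe sets). With LPS none passed (0.322% of all), 6 had an unadjusted p under 0.05 by limma (13.9% of all) and 4 did not overlap (17.1% of all), 1 higher and 3 lower in KO. With KO LPS array 2 left out, 2 kept an unadjusted p under 0.05 with LPS, Slc2a1 1426599_PM_a_at and Pfkp 1416069_PM_at (9.6% of all). Without stimulation none passed (0.163% of all), 6 had an unadjusted p under 0.05 (8.49% of all) and 6 did not overlap (16.5% of all), 4 higher and 2 lower in KO. The median difference of the 19 was −0.06 over both stimulations, −0.12 with LPS and 0.09 without, and that of all probe sets was −0.02, −0.03 and −0.0019. The median of the 19 with KO LPS array 2 left out was 0.01 over both stimulations and −0.03 with LPS.

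**Figure D3:**
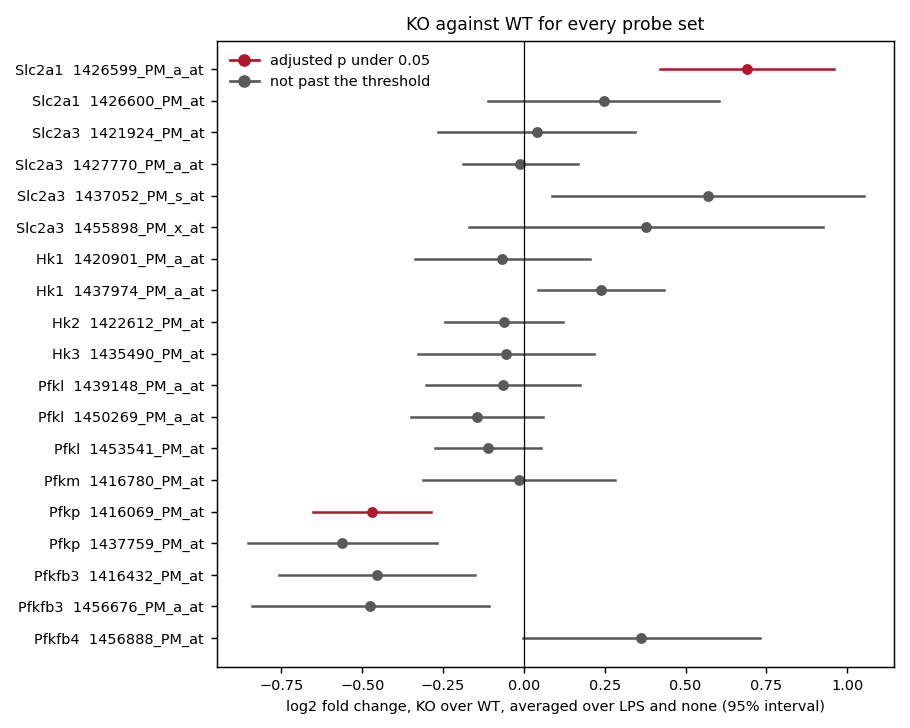
Log2 fold change of KO over WT averaged over LPS and unstimulated arrays (horizontal axis) for each of the 19 probe sets, with 95% intervals from limma, in red where the adjusted p was under 0.05. Slc2a1 1426599_PM_a_at lies at 0.69 and Pfkp 1416069_PM_at at −0.47, and the other Pfkp and both Pfkfb3 probe sets lie on the negative side without passing.

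No member passed for LPS in either genotype, and Hk2 was the 1 member whose LPS arrays lay apart from the unstimulated arrays in both. Hk2 probe set 1422612_PM_at read 5.61, 5.61 and 5.96 in KO LPS arrays, against 5.29, 5.43 and 5.35 in KO unstimulated arrays. It read 5.82, 5.92 and 5.71 in WT LPS arrays, against 5.52, 5.34 and 5.32 in WT unstimulated arrays. All 6 LPS arrays lay above all 6 unstimulated arrays, and the difference between arrays of the same number was 0.33, 0.18 and 0.62 in KO and 0.30, 0.59 and 0.39 in WT. The effect was 0.37 ± 0.12 in KO (limma, 1.30-fold, adjusted p = 0.322) and 0.42 ± 0.12 in WT (1.34-fold, adjusted p = 0.559), and neither passed. Averaged over genotypes, a comparison added after the values were seen, it was 0.40 ± 0.08 with an adjusted p of 0.0611. That value was 0.0298 with array number within genotype as a random replicate block, 0.0679 with it as a fixed replicate block, and 0.0300 without KO LPS array 2.

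The other LPS differences rested more on single arrays. With LPS in KO, Pfkl 1450269_PM_a_at differed by −0.45 ± 0.13 (limma, adjusted p = 0.271) and Hk3 by −0.43 ± 0.18 (adjusted p = 0.466). Leaving out KO LPS array 2, Pfkl differed by −0.36 ± 0.14 and Hk3 by −0.32 ± 0.18. For Hk3 the difference between same-numbered arrays was −1.04 for KO array 2, against −0.03 and −0.22 for KO arrays 1 and 3. Slc2a1 1426600_PM_at differed by −0.63 ± 0.23 in KO (adjusted p = 0.406) and by −0.31 ± 0.16 without KO LPS array 2, while the interval of the brighter Slc2a1 probe set was −0.38 to 0.38. Pfkfb3 1416432_PM_at was higher with LPS in 5 of 6 same-numbered pairs, by 0.33 and 0.40 in KO arrays 1 and 3 and by 0.44, 0.44 and 0.38 in WT, and lower by −0.14 in KO array 2. Its effect was 0.20 ± 0.20 in KO and 0.42 ± 0.20 in WT (limma, adjusted p = 0.800 and 1.00), and 0.36 ± 0.19 in KO with KO LPS array 2 left out (adjusted p = 0.730).

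With LPS in KO none of the 19 probe sets passed (0.301% of all), 4 had an unadjusted p under 0.05 by limma (9.53% of all) and 3 did not overlap (13.5% of all). With LPS in WT none passed (0.128% of all), 1 had an unadjusted p under 0.05 (4.93% of all) and 3 did not overlap (11.7% of all). Averaged over genotypes none passed (0.637% of all), 3 had an unadjusted p under 0.05 (8.93% of all), and Hk2 was the 1 that did not overlap (1.91% of all). The difference between the LPS effects, KO minus WT, passed for none of the 19 and for 0% of all probe sets, with an unadjusted p under 0.05 for 1 of the 19, Pfkl 1450269_PM_a_at at −0.41 ± 0.19, and for 3.95% of all. With KO LPS array 2 left out it was −0.32 ± 0.18 (unadjusted p = 0.105, limma), and none of the 19 had an unadjusted p under 0.05. For Hk2 that difference was −0.05 ± 0.17, with an interval of −0.42 to 0.32, and 0.0082 ± 0.17 with that array left out. These comparisons share arrays with each other and with those between genotypes.

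**Figure D4:**
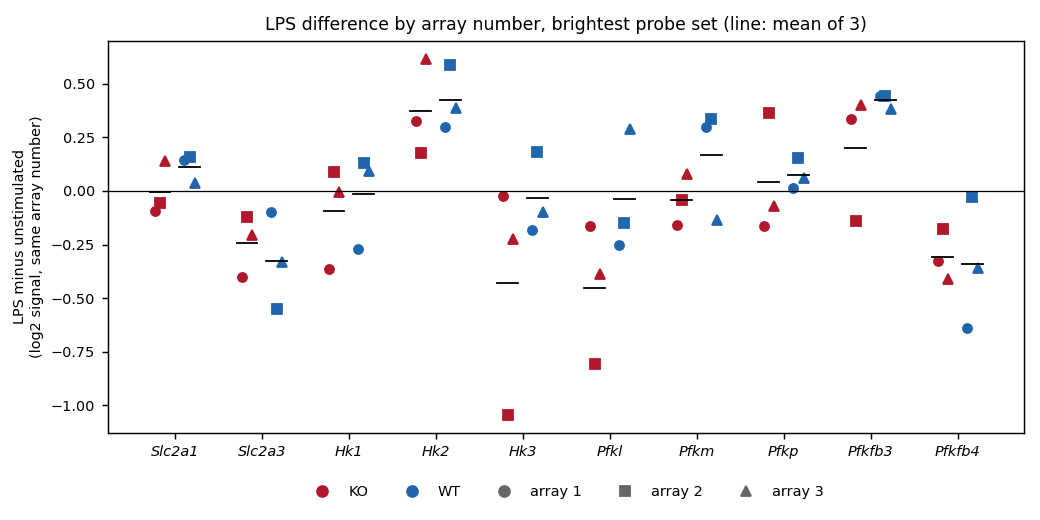
LPS minus unstimulated log2 signal of the array with the same number and genotype (vertical axis) for the brightest probe set of each gene, with circles, squares and triangles for arrays 1, 2 and 3, KO left of WT and a line at the mean of 3. All 6 Hk2 points lie above 0, from 0.18 to 0.62, and KO array 2 gives the lowest points of Hk3 and Pfkl.

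Probe sets of the same gene were set against each other within each array, each minus the brightest of its gene, to see whether they changed unequally. None of the 9 differences of these genes passed in KO against WT over both stimulations by limma, where 0.186% of 11801 such differences did, and 1 had an unadjusted p under 0.05 (12.9% of all). That was Slc2a1, 1426600_PM_at minus 1426599_PM_a_at. It was −0.51, −1.99 and −0.80 in KO LPS arrays, against −0.48, −0.39 and −0.28 in WT LPS arrays. It was −0.36, −0.55 and −0.51 in KO unstimulated arrays, against −0.34, −0.27 and −0.31 in WT unstimulated arrays. KO lay below WT without overlap in both stimulations. Averaged over stimulations it differed by −0.44 ± 0.20 (adjusted p = 0.372), and −0.22 ± 0.10 without KO LPS array 2 (adjusted p = 0.374). With LPS alone it was −0.72 ± 0.28 (adjusted p = 0.311), and −0.27 ± 0.15 without that array (adjusted p = 0.672).

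KO LPS array 2 also gave the lowest value of the 12 arrays for the differences of Slc2a3 1421924_PM_at (−2.86), Slc2a3 1427770_PM_a_at (−4.57), Slc2a3 1437052_PM_s_at (−0.48), Hk1 (−3.07), Pfkp (−2.34) and Pfkfb3 (−0.93), so 7 of the 9 were lowest on the array with the steepest Gapdh gradient, whose part was not tested. How many of all 11801 such differences were lowest on that array was not counted, so the 7 are not read as a trait of these genes. Only the 2 differences of Pfkl were not lowest there. The Pfkfb3 difference was −0.47, −0.93 and −0.43 in KO LPS arrays, against −0.38, −0.45 and −0.66 in WT LPS arrays, and −0.12, −0.53 and −0.33 in KO unstimulated arrays, against −0.39, −0.30 and −0.51 in WT unstimulated arrays. The Pfkp difference was −1.47, −2.34 and −1.59 in KO LPS arrays, against −2.09, −2.23 and −2.01 in KO unstimulated arrays, a difference of 0.31 ± 0.20 (limma, adjusted p = 0.655), or 0.58 ± 0.15 without KO LPS array 2 (adjusted p = 0.542). None of the 9 passed in the other comparisons, where 0% of such differences passed in each genotype and stimulation alone and 0.0254% with LPS averaged over genotypes. Which transcript forms the probe sets read was not analysed here.

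**Figure D5:**
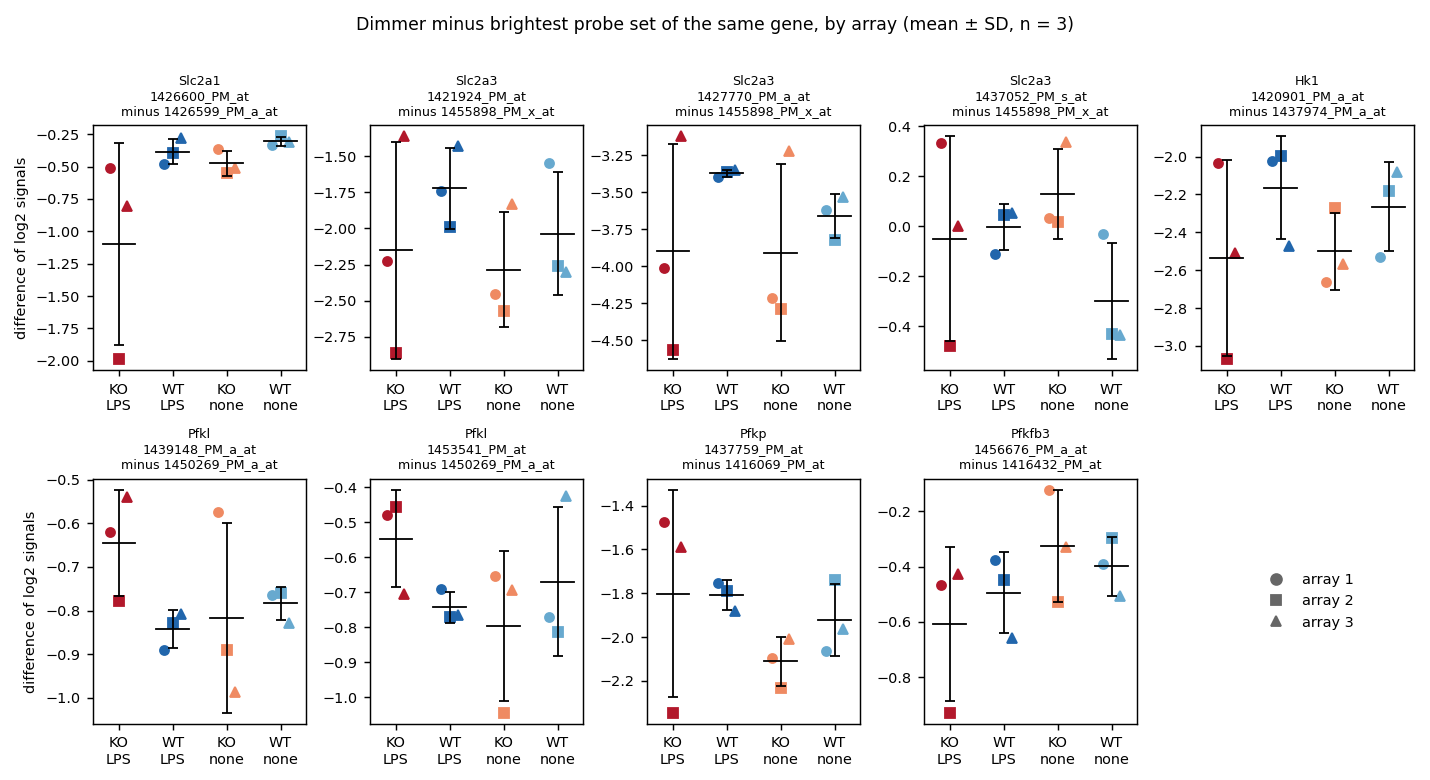
Log2 signal of each dimmer probe set minus that of the brightest probe set of the same gene on the same array (vertical axes), by group, with circles, squares and triangles for arrays 1, 2 and 3, a line at the mean and bars of ± SD (n = 3 per group). KO LPS array 2 is the lowest point in 7 of the 9 panels, with the Slc2a1 difference there at −1.99. The share of all such differences lowest on that array was not counted.

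Around these genes, 38 of 43 other genes of glucose handling were measured, in 4 lists chosen with earlier results of these data known. In KO against WT over both stimulations none of the 38 passed by limma on the brightest probe set (2.12% of all probe sets), and 6 higher and 4 lower had an unadjusted p under 0.05 (16% of all). These were 3 higher and 1 lower of the 11 measured lower glycolysis enzymes, 1 lower of the 5 other enzymes of the upper steps, 1 higher of the 10 other transporters and 2 higher and 2 lower of the 12 regulators. The median difference of the lower glycolysis enzymes was 0.15, against −0.02 for all genes. With KO LPS array 2 left out, the transcription factor Myc passed as higher in KO (0.49 ± 0.12, limma, adjusted p = 0.0409, against 0.34 and adjusted p = 0.326 with all arrays), 7 higher and 2 lower had an unadjusted p under 0.05 (15.7% of all), and the lower glycolysis median was 0.23. None of the 38 passed with LPS (0.322% of all) or without (0.163% of all). With LPS 3 higher and 2 lower had an unadjusted p under 0.05 by limma (13.9% of all), and without LPS 2 higher and 0 lower (8.49% of all). These numbers with KO LPS array 2 left out were 2 higher and 1 lower with LPS (9.6% of all), and 5 higher and 2 lower without (12.7% of all).

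With LPS, Myc, a transcription factor known to raise glucose transporter and glycolytic gene expression in lymphocytes, was the 1 gene of the 38 that passed. It read 7.76, 6.96 and 7.92 in KO LPS arrays, against 6.42, 5.88 and 6.27 in KO unstimulated arrays. It read 7.31, 7.18 and 7.08 in WT LPS arrays, against 6.08, 5.95 and 5.55 in WT unstimulated arrays. All 6 LPS arrays lay above all 6 unstimulated arrays, with array 2 the lowest of both KO groups. In KO it rose by 1.36 ± 0.23 (limma, adjusted p = 0.0277, where 0.301% of all probe sets passed), and in WT the difference of 1.33 ± 0.23 did not pass (adjusted p = 0.0557, where 0.128% of all passed). Without KO LPS array 2 the effects were 1.65 ± 0.18 in KO (adjusted p = 0.000765) and 1.33 ± 0.16 in WT (adjusted p = 0.00179), and their difference did not pass with all arrays (0.03 ± 0.32, adjusted p = 0.995). In the lower glycolysis list none of 11 passed with LPS in KO or in WT, with 3 lower at an unadjusted p under 0.05 in KO (Aldoa, Gapdh and Pkm, 9.53% of all) and 0 in WT (4.93% of all), and a median of −0.14 in KO and −0.07 in WT, against −0.02 and 0.0027 for all genes. With KO LPS array 2 left out none of the 11 had an unadjusted p under 0.05 with LPS in KO, Gapdh differed by −0.27 ± 0.14, against −0.54 with all arrays, and the list's median was −0.22.

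The genes most like 4 of the members over the 12 arrays were found by Pearson correlation of log2 signal among 8539 genes brighter than the median, as a description in which all points share genotype and stimulation. For Slc2a1 they were Klf9 (0.96), Ppp3ca (0.96) and Gzmb (0.96), the last of which is 1 of the 8 NK markers. For Hk2 they were Icam1 (0.89), Il12b (0.89) and Azin1 (0.88). For Hk3 they were Eif4ebp1 (0.94), Abhd2 (0.89) and Tmod3 (0.88), and for Pfkfb3 Grasp (0.95), Ahnak (0.94) and Hat1 (0.93). Among the members themselves, Slc2a3 and Pfkfb4 correlated at 0.86, Hk3 and Pfkl at 0.73, and Slc2a1 and Pfkp at −0.84.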

How the data were processed

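RNA from splenic DCs was amplified with a kit that primes with oligo(dT) and random primers, and the deposited values are log2 signals that the authors made with RMA, per the submitters' processing notes, with the version not given in the sources used here. RMA puts all arrays on 1 distribution, so a shift shared by all genes cannot be seen. Of 45141 probe sets, 104 controls, 551 with several gene symbols and 15588 with none in the annotation used here were left out, and 28898 were tested with no filter on signal. All comparisons came from 1 fit of 4 group means in R 4.3.3 with limma 3.58.1 (lmFit and eBayes, 8 residual degrees of freedom, prior 4.38, total 12.4). P-values were adjusted by Benjamini-Hochberg over the 28898 probe sets in each comparison and called under 0.05, and ± gives moderated SEs for differences and SDs for levels. Differences between probe sets of a gene were fitted in the same way. The code was tested on simulated data.

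The members and gene lists were chosen with earlier results of these data known, and LPS averaged over genotypes was added after the values were seen. The text names every probe set of the 10 genes, the called genes of the pathway lists, the 3 brightest genes of a marker list, and for Slc2a1, Hk2, Hk3 and Pfkfb3 the 3 genes of highest correlation. Xcr1, Cd4, Jchain, Ms4a1, Pf4, Ppbp, Itga2b, Aldoa, Gapdh and Pkm, behind counts of 1 to 3 genes, were named after their values were seen. For the pathway lists and the marker lists the brightest probe set of each gene was used, and a gene with no probe set under its symbol alone was not analysed here. Each array has its own mouse label, and whether unstimulated and LPS arrays of 1 number come from 1 mouse is not stated. As deviations from their group means, arrays of 1 number and genotype correlated at 0.244, 0.247 and 0.364 in KO and 0.334, 0.206 and 0.357 in WT, and different numbers at −0.268 to −0.048, so same numbers within a genotype were treated as pairs in the replicate blocks (duplicateCorrelation, statmod 1.5.0, correlation 0.162). Other alternatives were leaving out each array, array weights, other normalizations, other filters and other variance models. No depth applies to arrays, and 3 arrays per group limit the precision.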

Additional observations from a re-analysis of the deposited data

How the results depend on the processing

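With array number as a fixed replicate block over all arrays, probe sets called in KO against WT numbered 222 unstimulated, 373 with LPS and 1267 averaged (47, 93 and 614 without a block), and members called 1, 1 and 4 (0, 0 and 2 without; the 1 was Slc2a1 1426599_PM_a_at), and in LPS against unstimulated 135 in KO and 80 in WT (87 and 37 without). A random replicate block within genotype gave 406 in averaged KO against WT, 154 and 74 with LPS in KO and in WT, and 1 member, Hk2, with LPS averaged over genotypes, where none was called without it. A fixed replicate block within genotype gave 198, 106 and 338 with LPS in KO, in WT and averaged (184 without). Pair means left 60 probe sets and 0 members in averaged KO against WT, with Slc2a1 1426599_PM_a_at at 0.69 and Pfkp 1416069_PM_at at −0.47. Array weights gave 202 for unstimulated and 1136 for averaged KO against WT, 155, 79 and 322 with LPS in KO, in WT and averaged, and 1 member in the last. Only the arrays compared gave 115 and 0 for KO against WT unstimulated and with LPS, and 8 and 78 with LPS in KO and in WT, and 1 probe set per gene gave 20 with LPS in WT. The random block without KO LPS array 2 gave 297 probe sets and 2 members for KO against WT unstimulated, 158 with LPS, and 207, 167 and 579 with LPS in KO, in WT and averaged, with 1 member in the last. Leaving out each array gave 6 to 246 and 2 to 511 for KO against WT unstimulated and with LPS, 260 to 1243 averaged, and 42 to 134, 11 to 104 and 121 to 335 with LPS in KO, in WT and averaged. Members then numbered 2 to 6 in averaged KO against WT, with 6 without KO LPS array 3 (Slc2a1, Slc2a3, both Pfkp and both Pfkfb3 probe sets), and 0 to 1 with LPS averaged, with Hk2 without KO LPS array 2. Leaving out 1 array, Slc2a1 1426599_PM_a_at ran from 0.61 to 0.74 and Pfkp 1416069_PM_at from −0.52 to −0.41 in averaged KO against WT. The 26 member results with an unadjusted p under 0.05 that were not called were picked on these same arrays. None changed direction over 594 values, which says little, since the alternatives refitted mostly the same arrays. No member difference between probe sets of a gene, and no LPS effect of KO minus WT, passed under any alternative run. The causes of these shifts were not tested.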
